A study of Rattus norvegicus with 90 samples.

Results

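Microglia of rats that had been given IL-1β and then intravenous human cells were compared with microglia of uninjured rats at postnatal day (P) 7. The libraries were taken by their labels: all 9 of the P7 intravenous experiment that received cells, and the 3 that received PBS and no injury, 12 of the 90 libraries of the series. All were CD11b/c-positive cells from brains of male Wistar Han rats, sequenced as polyadenylated RNA in the run that held the whole P7 intravenous experiment. Olfactory bulbs and cerebellum had been removed, and the cells were drawn with antibody-coated beads after tissue dissociation. The treated pups were injected intraperitoneally in their first days with IL-1β, the recombinant mouse protein, at a dose of 20 µg per kg, a model of the inflammation that accompanies preterm birth. At P5 they received human umbilical cord mesenchymal stromal cells (HuMSC) by vein at 20, 50 or 125 M cells per kg, with 3 libraries a dose (HuMSC20, HuMSC50 and HuMSC125). Control pups received PBS in place of both, with no injury, and brains were taken 48 h after the cells or PBS. The 3 injured libraries of the run, from pups given IL-1β and PBS in place of cells, were in the same fit and are cited only beside the treated values. The comparison asks which genes still differed from the uninjured state after the cells had been given. The p-values set differences between groups against the spread between libraries within groups, estimated over the 5 groups of the run. The labels leave unsaid whether replicates came from separate animals, so this may not be the spread between animals.

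Microglia are the resident macrophages of the brain. They depend on signals through the receptor Csf1r, carry purinergic and chemokine receptors with which they survey the tissue, and in the first postnatal days many of them divide and clear debris. IL-1β acts through a receptor that leads to NF-kB and the stress kinases, and secondarily induces IL-6 family cytokines, which signal through Il6st and STAT3. Mesenchymal stromal cells are given for the factors they release, which act on immune cells.

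The libraries held 13.4 to 34.3 M counts over the 15 of the run, and 14698 of 32623 genes passed the filter on low counts. The microglial label held in every library: 25 of 26 homeostatic microglial genes passed the filter, and their summed level, in CPM (read counts scaled to a common library size), was 35200 to 38800 in control and 28200 to 36100 in treated libraries. Csf1r, the receptor on which microglial survival depends, stood at 5950, 5823 and 5888 CPM in control and at 3985, 5008 and 5427 CPM (lowest, median, highest) in treated libraries. Neuron and oligodendrocyte markers summed to more in treated libraries, and their part in the results was not tested. The 28 neuron markers, none of which was at 0 throughout, summed to 196 to 446 CPM in control, 175 to 243 in injured and 515 to 6340 CPM in treated libraries. In all, 3 treated libraries stood apart by them, with a mean log2 marker level 2.62 (HuMSC20 replicate 1), 2.54 (HuMSC125 replicate 1) and 2.67 (HuMSC125 replicate 2) above the median of the run. They are called neuron-rich below, and their marker sums were 5240 to 6340 CPM, against 515 to 1290 CPM in the other 6 treated libraries. Oligodendrocyte markers summed to 367 to 447 CPM in control, 1730 to 2030 in the neuron-rich and 391 to 639 CPM in the other treated libraries, the lowest of which lay within the control range. Astrocyte markers overlapped, with 816 to 1130 CPM in control and 594 to 1340 CPM in treated libraries, and all 14 endothelial markers tested had log2 changes below 0 (median -0.18). Mitochondrially encoded transcripts made up 4.27 to 7.36% of counts in control libraries and 11.1, 14.6 and 16.5% in the neuron-rich ones. HuMSC50 replicate 3 stood apart in another way, with a mitochondrial share of 0.555% and a second principal component of -77.5, while all other libraries lay between -7.12 and 20.3. In bulk RNA, more cells of a type and more RNA per cell cannot be told apart. Results are given with and without these 4 libraries.

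**Figure D1:**
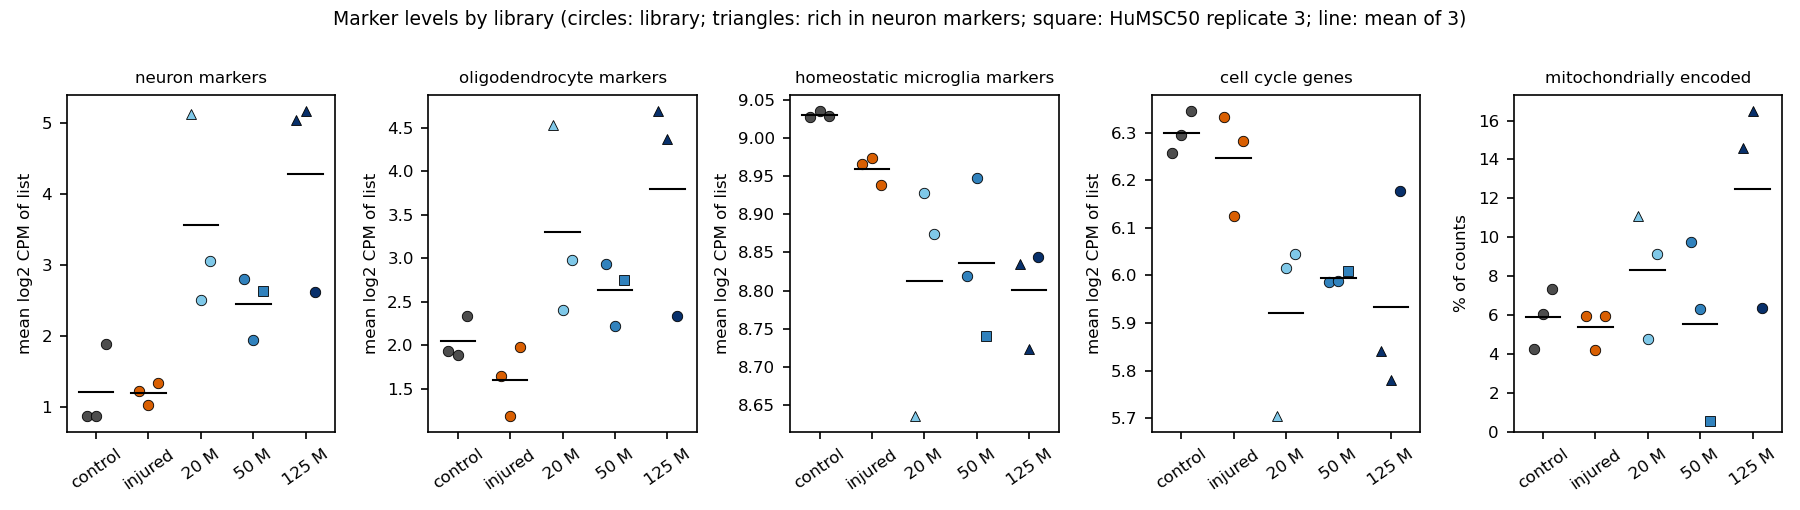
Mean log2 CPM of 4 gene lists and the percentage of mitochondrially encoded counts, by group, with each point a library and each line the mean of 3 libraries. The neuron-rich libraries (triangles) sit at 5.04 to 5.18 for neuron markers, and control libraries at 0.87 to 1.89. All 9 treated libraries lie below all 3 control libraries for homeostatic and for cell cycle genes. The 3 injured libraries also lie below the controls for homeostatic genes, and injured replicate 2 does so for cell cycle genes.

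Treated libraries differed from control libraries in 97 of 14698 genes (0.66% of those tested, edgeR adjusted p under 0.05), 81 lower (0.551%) and 16 higher (0.109%). Falling genes included mediators and receptors of inflammatory signalling, lysosomal enzymes and genes of mitosis. Risers included the proteoglycan gene Sdc1, the nuclear receptor gene Nr4a2 and class II antigen presentation genes. The median log2 change was -0.73 among falling and 1.05 among rising genes, and close to 0 over all genes tested (-0.00078). In 93 of the 97 genes the 9 treated libraries did not overlap the 3 control libraries. Over all genes, 3.23% had every treated library above every control and 3.88% had every treated library below.

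None of the 97 changed sign in any alternative run, but they were chosen in these same libraries, most of which each alternative reuses. The kept signs are therefore no independent check. The number of genes called depended on single libraries. It was 14, 15 and 15 without control replicate 1, 2 or 3, 52 and 47 without HuMSC125 replicate 1 or 2, 546 without HuMSC20 replicate 2, 423 without HuMSC50 replicate 3 and 1242 without HuMSC125 replicate 3. Without the 3 neuron-rich libraries 15 of 15049 genes were called (0.0997%), 14 of them among the 97, and without these and HuMSC50 replicate 3 together 476 of 15040 (3.16%; 1.69% higher and 1.48% lower), 94 of them among the 97. All 97 genes kept their sign in both of these fits, which reuse libraries of the fit that chose them. DESeq2 called 1381 genes, 984 higher and 397 lower, and all 97 were among them. Rising genes also outnumbered falling ones within edgeR in some runs. These were 887 higher and 355 lower without HuMSC125 replicate 3, 367 and 179 without HuMSC20 replicate 2, and 210 and 157 with no filter on low counts. The balance of falling and rising genes thus differed with the tool, with single libraries and with the filter. The 7 genes that passed in every alternative run were Ankrd55 (ENSRNOG00000013555), Sgk1 (ENSRNOG00000011815), Myc (ENSRNOG00000004500), P2rx1 (ENSRNOG00000017606), Pdk4 (ENSRNOG00000009565), Atp2a3 (ENSRNOG00000017912) and Sdc1 (ENSRNOG00000059947).

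**Figure D2:**
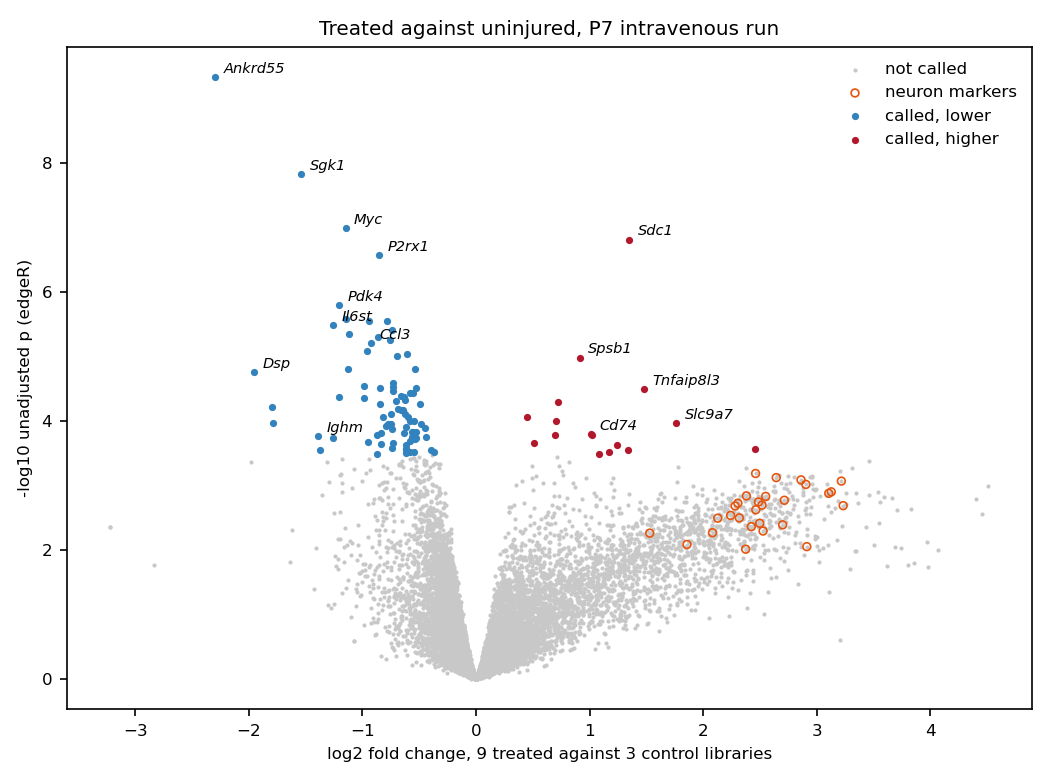
Log2 fold change of the 9 treated against the 3 control libraries and -log10 of the unadjusted edgeR p for each of the 14698 genes tested, with the 97 called genes in colour. The 28 neuron markers (open circles) lie at the right of 0 on the horizontal axis, and none was called.

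The largest fall among the 97 was that of Ankrd55, which encodes an ankyrin repeat protein and lies in a human locus tied to autoimmune disease. It stood at 57.8, 64.6 and 68.0 CPM in the 3 control libraries and at 8.93, 12.3 and 15.9 CPM in the 9 treated ones. Every treated library was far below every control, and Ankrd55 fell by 2.29 ± 0.15 on the log2 scale (± SE, adjusted p = 6.74e-06). Sdc1, which encodes syndecan 1, a cell-surface heparan sulphate proteoglycan, went the other way. Its level was 12.7, 13.1 and 10.4 CPM in control and 22.1, 30.3 and 41.8 CPM in treated libraries, a rise of 1.35 ± 0.14 (adjusted p = 0.000558). With Sgk1 and Myc, they were the genes that passed at each of the 3 doses taken alone, so the RefSeq sequences before their starts are shown (build GRCr8, plus strand, 250 bases each), Ankrd55 at chr2:45647536-45647785 and Sdc1 at chr6:37281791-37282040. Capitals mark matches to 6 motifs searched on both strands.
Ankrd55: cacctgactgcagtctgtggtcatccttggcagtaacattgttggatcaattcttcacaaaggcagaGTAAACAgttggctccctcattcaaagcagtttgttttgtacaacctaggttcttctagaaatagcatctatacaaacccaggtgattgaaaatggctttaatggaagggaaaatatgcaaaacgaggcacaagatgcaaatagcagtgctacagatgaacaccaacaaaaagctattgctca
Sdc1: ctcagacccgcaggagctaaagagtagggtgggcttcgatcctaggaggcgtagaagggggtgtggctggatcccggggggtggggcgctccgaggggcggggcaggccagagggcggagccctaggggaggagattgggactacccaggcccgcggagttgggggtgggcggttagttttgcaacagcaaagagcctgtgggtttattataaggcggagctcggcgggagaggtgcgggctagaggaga
The motifs were a forkhead motif (GTAAACA, in 3.21% of 33469 such windows), AP-1 (TGANTCA, 6.34%), a cyclic AMP response element (TGACGTCA, 1.59%), NF-kB (GGGANTTCC, 1.43%), an E-box (CACGTG, 5.59%) and STAT (TTCNNNGAA, 7.67%). The Ankrd55 window held 1 forkhead match, 183 bases before the start, and the Sdc1 window held none of the 6. Of the other steady genes, the P2rx1 window held 1 STAT match, 224 bases before the start, and those of Sgk1, Pdk4 and Atp2a3 held none. Myc was not searched. A match describes these letters only. The windows differ in base composition, with 40.8% G and C for Ankrd55 and 65.2% for Sdc1.

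A further 5 genes fell in every alternative run. Sgk1, a serum and glucocorticoid induced kinase that acts on ion transport and cell survival, had 869, 773 and 791 CPM in control and 183, 276 and 383 CPM in treated libraries. It fell by 1.54 ± 0.13 (adjusted p = 0.000109), and it was the 1 gene of 20 in the glucocorticoid response list that was called. Myc, the growth-promoting transcription factor, fell by 1.15 ± 0.12 (adjusted p = 0.000495) from 124, 127 and 134 CPM to 47.1, 57.1 and 75.3 CPM. The 3 controls lay within a narrow band and no treated library came near it. P2rx1, an ATP-gated cation channel, had 71.7, 69.5 and 64.1 CPM in control and 32.1, 37.2 and 45.6 CPM in treated libraries, and fell by 0.85 ± 0.093 (adjusted p = 0.000783). Atp2a3, the calcium pump of the endoplasmic reticulum known as SERCA3, went from 32.0, 33.2 and 35 CPM to 13.6, 17.4 and 21.6 CPM and fell by 0.94 ± 0.13 (adjusted p = 0.00458). Pdk4, a kinase that shuts pyruvate dehydrogenase and so keeps pyruvate out of the citric acid cycle, went from 121, 111 and 124 CPM to 31.1, 50.6 and 77.0 CPM, and fell by 1.21 ± 0.15 (adjusted p = 0.00392). Its 3 lowest libraries were those given 125 M cells per kg. With the neuron-rich libraries left out the 7 changes were -2.19 for Ankrd55, 1.39 for Sdc1, -1.44 for Sgk1, -1.05 for Myc, -0.80 for P2rx1, -0.83 for Atp2a3 and -1.07 for Pdk4, close to those with them. The largest adjusted p on leaving out any 1 library was 0.0441, for Atp2a3.

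**Figure D3:**
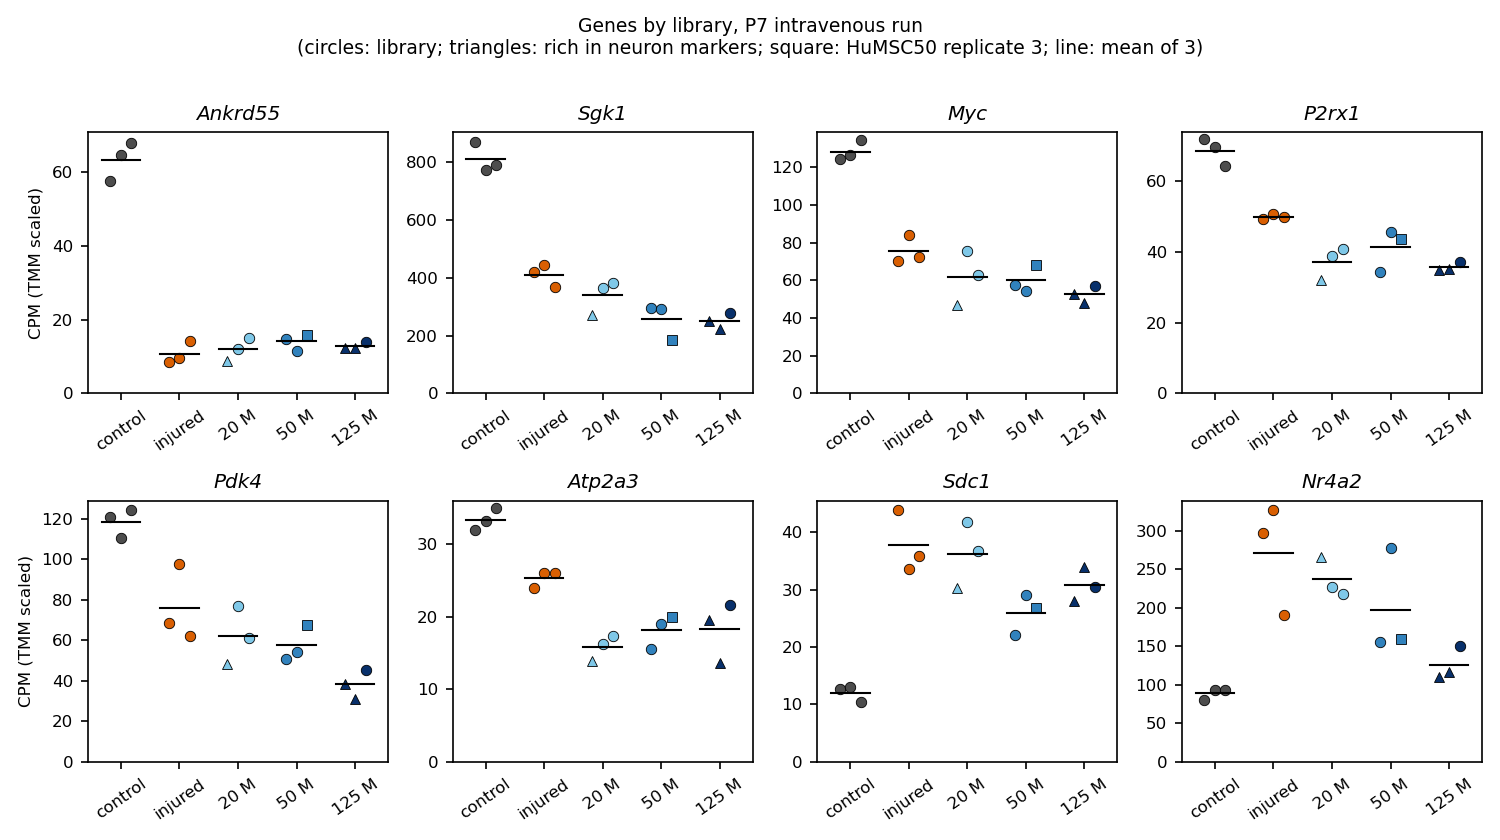
CPM of 8 genes in each library of the run, by group, on linear axes from 0, with the mean of each group as a line. Ankrd55 lies between 8.93 and 15.9 CPM in the 9 treated libraries and at or above 57.8 CPM in the controls, and Sdc1 and Nr4a2 are the 2 genes of the 8 that are higher in treated libraries.

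The first group was that of cytokines, chemokines and NF-kB targets. Of 34 tested cytokine, chemokine and NF-kB target genes 3 fell and 0 rose. Over all genes 0.551% fell and 0.109% rose, shares that also stand beside the lists below. The list had a median of -0.17 against -0.00078 over all genes, and 24 of the 34 were below 0. Homeostatic microglial genes, with 0 of 25 called, had a median of -0.19 and 19 below 0. A shift of this size was therefore not particular to the cytokine list. Ccl3, a chemokine that draws myeloid cells and lymphocytes, had 1226, 1009 and 984 CPM in control and 428, 526 and 698 CPM in treated libraries, and fell by 0.93 ± 0.13 (adjusted p = 0.00603, 0.0883 without control replicate 1). Every treated library lay below the lowest control. Cxcl10, a chemokine induced by interferon, fell by 0.85 ± 0.14 (adjusted p = 0.0167), from 19.7, 21.6 and 18.4 CPM to 7.69, 10.9 and 16.5 CPM. Its call was lost without any 1 of the controls (largest adjusted p 0.147). It was the 1 gene called among 31 interferon response genes, whose median of -0.18 was also like that of the homeostatic genes. Tnfaip2, a gene induced by TNF, fell by 1.12 ± 0.16 (0.00541, and 0.0747 without control replicate 1). The cytokine gene Il1b itself stood at 536, 493 and 408 CPM in control and at 286, 456 and 616 CPM in treated libraries, with a difference of -0.11 ± 0.13 that did not pass (adjusted p = 0.69). Of the list, 1 of 35 genes was called without the neuron-rich libraries, Ccl3 (0.0174), while Cxcl10 (0.0537) and Tnfaip2 (0.0537) did not pass. Without HuMSC50 replicate 3 as well, 6 of 35 fell, these 3 among them. Tnf had 0 counts in the 15 libraries, and Nos2 was not analysed here.

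On the receptor side, both chains through which IL-6 acts fell. Il6st, which encodes gp130, the signalling chain shared by the IL-6 family, had 464, 486 and 599 CPM in control and 136, 236 and 288 CPM in treated libraries. It fell by 1.25 ± 0.17 (adjusted p = 0.0047, 0.0525 without control replicate 3), with no overlap. Il6r, the chain that binds IL-6, fell by 0.56 ± 0.094 (adjusted p = 0.0176), from 617, 675 and 534 CPM to 378, 407 and 464 CPM, and lost its call without control replicate 1 or 2 (up to 0.162). These were the 2 genes called among 27 of IL-1 and IL-6 family signalling, which had a median of -0.067. Csf1, a ligand of Csf1r, fell by 0.75 ± 0.14 (adjusted p = 0.029). Dusp6, a phosphatase that inactivates ERK, fell by 0.66 ± 0.11 (0.0179), and Spry1, an inhibitor of growth factor signalling chosen after its value was seen, fell by 0.73 ± 0.12 (0.0167). Dusp6 had 697, 646 and 659.8 CPM in control and 361, 394 and 533 CPM in treated libraries. The calls of these 3 were lost without any 1 control (up to 0.262, 0.172 and 0.131), and that of Csf1 also without HuMSC125 replicate 1 or 2. Il6st passed without the neuron-rich libraries (0.0174), and Il6r (0.0887), Csf1 (0.108), Dusp6 (0.0786) and Spry1 (0.0614) did not. All 5 passed without HuMSC50 replicate 3 as well.

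Immediate early genes, which respond within minutes to stimuli and to tissue dissociation, moved both ways. Of 30 tested, Nr4a2 rose, Dusp6 and Klf4 fell, and the median was -0.039. Nr4a2, an orphan nuclear receptor that represses inflammatory genes in microglia, had 80.5, 93.4 and 93.0 CPM in control, 297, 327 and 191 CPM in injured and 109.9, 159 and 278 CPM in treated libraries. It rose by 1.02 ± 0.20 (adjusted p = 0.0343), with its 3 lowest treated libraries all at 125 M cells per kg. Klf4, a transcription factor of myeloid cells, had 179.5, 151 and 149 CPM in control and 55.1, 87.3 and 149.6 CPM in treated libraries, and fell by 0.79 ± 0.15 (adjusted p = 0.0301). Of the treated libraries, 1 (HuMSC20 replicate 2) lay within the range of the controls. Both calls were lost without any 1 control (up to 0.262 for Nr4a2 and 0.255 for Klf4). They were also lost without HuMSC125 replicate 1 or 2, that of Nr4a2 without HuMSC20 replicate 1 and that of Klf4 without HuMSC20 replicate 3. With the neuron-rich libraries left out, 0 of 30 genes were called, and Nr4a2 (0.0745) and Klf4 (0.106) did not pass. Both passed without HuMSC50 replicate 3 as well, when 2 of 30 rose and 5 fell.

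Lysosomal genes were lower almost throughout, though few passed alone. Of 35 tested 5 fell, 0 rose and 33 were below 0, with a median of -0.29. Over all genes 0.551% fell and the median was -0.00078, and homeostatic genes had a median of -0.19 with 0 of 25 called. Ctsb, a cysteine protease and one of the most abundant microglial enzymes, stood at 6345, 5575 and 4585 CPM in control and at 2848, 3395 and 3736 CPM in treated libraries, and fell by 0.73 ± 0.12 (adjusted p = 0.0161). No treated library reached the lowest control. The protease gene Ctsl fell by 0.54 ± 0.10 (0.0286), Ctsd fell by 0.62 ± 0.12 (0.0304), and Grn, which encodes the lysosomal growth factor progranulin, fell by 0.56 ± 0.11 (0.0354). Ctsd had 3370, 2661 and 2462 CPM in control and 1656, 1761 and 2111 CPM in treated libraries, and Naglu, which degrades heparan sulphate, fell by 0.49 ± 0.092 (0.029). Fcgr3a, a low-affinity Fc receptor with which antibody-coated particles are taken up, fell by 0.75 ± 0.14 (0.0248) and was the 1 called of 26 complement and phagocytosis genes (median -0.26). The complement genes C1qa, C1qb and C1qc changed by -0.058 ± 0.16, -0.32 ± 0.12 and 0.043 ± 0.14 and did not pass (adjusted p = 0.89, 0.137 and 0.908). The call of Ctsb was lost without control replicate 1 or 2 (up to 0.174), and those of Ctsl (0.21), Ctsd (0.293), Grn (0.317), Naglu (0.265) and Fcgr3a (0.171) without any 1 control. Those of Ctsl, Ctsd, Grn and Fcgr3a were also lost without HuMSC125 replicate 2, and that of Grn without HuMSC125 replicate 1 and HuMSC20 replicate 1 or 3. Without the neuron-rich libraries the lysosomal median was -0.23 and 0 of 36 were called, and Ctsb (0.0703), Ctsl (0.0702), Ctsd (0.0884), Grn (0.106), Naglu (0.0884) and Fcgr3a (0.0547) did not pass. Without these and HuMSC50 replicate 3 it was -0.19 with 7 of 36 lower, and all 6 of these genes passed.

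A related set, microglia of early life and of proliferative regions such as the developing white matter, held 6 falling genes of 29 and 0 rising. Over all genes 0.551% fell. The median of the set, -0.19, was like that of the homeostatic list, where 0 of 25 were called. Besides Ctsb, Ctsl, Csf1 and Ccl3 the falling genes were Lpl, a lipase that frees fatty acids from lipoproteins, and Gpx3, a secreted glutathione peroxidase. Lpl had 171, 143 and 192 CPM in control and 57.7, 95.8 and 121 CPM in treated libraries and fell by 0.84 ± 0.17 (adjusted p = 0.0409), and Gpx3 fell by 0.74 ± 0.14 (0.0324). Both calls were lost without any 1 control or HuMSC125 replicate 2 (up to 0.236 and 0.304). That of Lpl was also lost without HuMSC125 replicate 1 or HuMSC50 replicate 1, and that of Gpx3 without HuMSC20 replicate 1. Of the 29, 1 was called without the neuron-rich libraries (Ccl3), the median was -0.16, and Lpl (0.0786) and Gpx3 (0.0786) did not pass. Without HuMSC50 replicate 3 as well, 7 fell, both of these among them, and 1 rose. Other genes typical of this state did not pass, with 0.21 ± 0.38 for Spp1 (adjusted p = 0.823) and 0.12 ± 0.20 for Igf1 (0.802).

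Genes of cell division were lower as a group. Of 40 cell cycle genes tested 3 fell and 0 rose, 38 of the 40 were below 0, and the median was -0.37. Over all genes 0.551% fell and the median was -0.00078. The mean level of the list was below that of all 3 controls in each treated library, as the plot of marker levels by library shows. Injured replicate 2, given no cells, was below the controls too, at 6.12 log2 CPM against 6.26, 6.29 and 6.35. It also lay below the treated HuMSC125 replicate 3 (6.18). Cdc20, the activator of the anaphase-promoting complex, had 72.4, 63.3 and 67.6 CPM in control and 39.8, 43.3 and 53.5 CPM in treated libraries and fell by 0.61 ± 0.090 (adjusted p = 0.00779). Tpx2, a spindle assembly factor, fell by 0.58 ± 0.12 (0.0387), and Prc1, which bundles microtubules at the midzone, fell by 0.54 ± 0.11 (0.0478). Further cell division genes outside the list were among the 97, and Kif2c, Nuf2 and Cenpt were picked out after their values were seen. They include Kif2c, a kinesin that depolymerises microtubules, which fell by 0.69 ± 0.10 (0.0079), the kinetochore genes Nuf2 (-0.61 ± 0.13, 0.0416) and Cenpt (-0.75 ± 0.11, 0.00582), and Skp2, a ubiquitin ligase subunit that removes the inhibitor p27 (-0.78 ± 0.10, 0.00458). Kif2c had 51.8, 52.5 and 53.2 CPM in control and 26.6, 32.3 and 39.8 CPM in treated libraries with no overlap. The proliferation marker Mki67 stood at 225, 255 and 239.7 CPM in control and 119, 173 and 235 CPM in treated libraries, -0.49 ± 0.16, and did not pass (adjusted p = 0.106). The DNA replication genes Mcm2 (-0.080 ± 0.12, adjusted p = 0.771) and Pcna (-0.20 ± 0.11, 0.312) did not pass.

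The calls of these genes rested on few libraries. Without 1 library the adjusted p reached 0.0974 for Cdc20 (lost without control replicate 1 or 3), 0.0525 for Skp2 (control replicate 3), 0.0808 for Cenpt (control replicate 2) and 0.0747 for Kif2c (any 1 control). For Tpx2, Prc1 and Nuf2 it reached 0.227, 0.237 and 0.231, and these 3 were lost without any 1 control, HuMSC125 replicate 1 or 2, HuMSC20 replicate 1 or HuMSC50 replicate 2, Prc1 also without HuMSC50 replicate 1. The neuron-rich libraries had the 3 lowest mean levels of cell cycle genes. Without them the median was -0.27 and 0 of 40 were called. Kif2c passed (0.0449), and Cdc20 (0.0681), Tpx2 (0.0745), Prc1 (0.106), Nuf2 (0.106), Cenpt (0.0547) and Skp2 (0.0537) did not. Without HuMSC50 replicate 3 as well, all 7 passed, and the list had a median of -0.23 with 10 lower. The part of the neuron marker level in this was not tested.

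Both genes called in the antigen presentation list were of class II and rose. Cd74, the invariant chain that guides class II molecules, had 83.2, 80.7 and 98.5 CPM in control and 119.5, 166 and 260.0 CPM in treated libraries and rose by 1.01 ± 0.20 (adjusted p = 0.0343). RT1-Da, a class II alpha chain, rose by 1.08 ± 0.23 (0.0493) from 25.8, 23.8 and 36.8 CPM to 40.4, 59.4 and 90.3 CPM. All 9 treated libraries lay above the 3 controls for both. They were 2 of 23 tested, and the list's median was -0.13. The class II chains RT1-Ba (0.97 ± 0.23, adjusted p = 0.0657) and RT1-Db1 (1.19 ± 0.28, 0.0671) were above 0 and did not pass, and the class I gene RT1-N3 was below (-0.45 ± 0.15, 0.108). Reads of class II genes may be shared between near-identical copies, so their counts are uncertain. Both calls were lost without any 1 control, HuMSC125 replicate 1 or 2 or HuMSC50 replicate 2, that of RT1-Da also without HuMSC50 replicate 1 or HuMSC20 replicate 3 (up to 0.236 for Cd74 and 0.316 for RT1-Da). The call count was 0 of 23 without the neuron-rich libraries, where Cd74 (0.0632) and RT1-Da (0.0745) did not pass, and without HuMSC50 replicate 3 as well 4 of 23 rose, both among them. Dendritic cells are among the cells that could carry class II transcripts. Their 11 markers, of which 7 were tested, summed to 41.7 to 57.3 CPM in control and 40.5 to 56.4 CPM in treated libraries. The part of these or other class II-bearing cells in the rise was not tested.

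Some falling genes are known from other cells. Ighm, the heavy chain of immunoglobulin M, had 66.5, 59.1 and 73.5 CPM in control and 7.40, 26.5 and 38.1 CPM in treated libraries, with its lowest library the neuron-rich HuMSC20 replicate 1, and fell by 1.39 ± 0.27 (adjusted p = 0.0354). Blk, a kinase of B cells, fell by 1.25 ± 0.25 (0.0356), Cd5 of T and B cells fell by 1.12 ± 0.17 (0.011) and Lag3, a T cell checkpoint gene chosen after its value was seen, fell by 0.83 ± 0.16 (0.0343). Cd5 had 15.2, 15.7 and 14.8 CPM in control and 5.26, 6.76 and 8.78 CPM in treated libraries. The 13 B cell markers, of which 4 were tested and 0 called, summed to 594 to 645 CPM in control, 566 to 598 in injured and 424 to 583 CPM in treated libraries. The T and NK cell markers, 1 of 9 tested called (Cd5), summed to 472 to 533 CPM in control and 418 to 655 CPM in treated libraries. Lyve1, the hyaluronan receptor of border-associated macrophages, fell by 0.99 ± 0.17 (0.0185) from 557, 939 and 795 CPM to 282, 388 and 535 CPM. It was 1 of 11 tested markers of these cells, whose sum was 1890 to 2670 CPM in control and 1710 to 2350 CPM in treated libraries. Plvap, a protein of fenestrated endothelium, fell by 1.20 ± 0.21 (0.0179). Of 14 endothelial markers 0 were called and all 14 were below 0 (median -0.18, and -0.15 with 14 of 14 below 0 without the neuron-rich libraries). Without HuMSC50 replicate 3 as well, 10 of 14 were below 0 (median -0.050). At 20 M cells per kg 7 of 14 were below 0 (median 0.0089). The part of a changed cell mix in these results was not tested. The calls of Ighm (up to 0.21), Blk (0.317), Cd5 (0.0961), Lag3 (0.236) and Plvap (0.138) were lost without any 1 control and that of Lyve1 without control replicate 2 or 3 (0.171). Those of Ighm, Blk and Lag3 were also lost without HuMSC125 replicate 1 or 2. The same held without HuMSC50 replicate 1 for Ighm and Blk, HuMSC50 replicate 2 for Ighm, and HuMSC20 replicate 1 for Blk and Lag3. Both Ighm (0.0251) and Cd5 (0.0233) passed without the neuron-rich libraries, and Blk (0.102), Lag3 (0.104), Lyve1 (0.0844) and Plvap (0.0632) did not. All 6 passed without HuMSC50 replicate 3 as well.

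Further genes at the ends of the ranking had other roles. Dsp, which encodes the desmosome protein desmoplakin, fell by 1.96 ± 0.31 (adjusted p = 0.0115) from 59.6, 44.3 and 86.1 CPM to 5.41, 16.7 and 25.4 CPM. Ccdc8, a member of a complex with the scaffold proteins Cul7 and Obsl1, fell by 1.14 ± 0.15 (0.00458) and lost its call without control replicate 3 (0.0545). Smpd3, the neutral sphingomyelinase that makes ceramide, fell by 0.74 ± 0.10 (0.00511, and 0.0747 without control replicate 1). Among risers, Spsb1, a ubiquitin ligase adaptor, had 24.3, 19.5 and 21.1 CPM in control and 27.4, 41.5 and 52.7 CPM in treated libraries and rose by 0.91 ± 0.14 (0.00799, up to 0.101 without control replicate 2 or 3). The sodium and proton exchanger gene Slc9a7 rose by 1.76 ± 0.33 (0.029), Tnfaip8l3, a carrier of phosphoinositides, by 1.48 ± 0.25 (0.0169), and Rap1gap2, which switches off the small GTPase Rap1, by 0.72 ± 0.13 (0.0194). Nell2 and Igsf3, which neural cells express, rose by 1.24 ± 0.25 (0.0416) and 1.34 ± 0.28 (0.0465). Igsf3 had 3.04, 3.25 and 4.06 CPM in control and 4.48, 8.01 and 18.0 CPM in treated libraries, and its 3 highest libraries were the neuron-rich ones. The part of neuronal RNA in its rise was not tested. The call of Dsp was lost without control replicate 1 or 3 (up to 0.0967). Those of Slc9a7 (0.235), Tnfaip8l3 (0.0967), Rap1gap2 (0.172), Nell2 (0.287) and Igsf3 (0.295) were lost without any 1 control. Slc9a7, Nell2 and Igsf3 lost theirs also without HuMSC125 replicate 2, Nell2 and Igsf3 without HuMSC125 replicate 1 or HuMSC50 replicate 2, and Igsf3 without HuMSC50 replicate 1. When the neuron-rich libraries were left out, Ccdc8 (0.0251) and Spsb1 (0.0449) passed, and Dsp (0.0745), Smpd3 (0.0681), Slc9a7 (0.0703), Tnfaip8l3 (0.0702), Rap1gap2 (0.0702), Nell2 (0.0814) and Igsf3 (0.0681) did not. All 9 passed without HuMSC50 replicate 3 as well.

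Genes that define microglial identity did not pass. Of 25 homeostatic genes 0 rose and 0 fell in edgeR, the median was -0.19 and 19 were below 0. The mean level of the list was nevertheless below all 3 controls in each of the 9 treated libraries. The 3 injured libraries were below them too, at 8.97, 8.97 and 8.94 log2 CPM against 9.03, 9.04 and 9.03 in control. P2ry12, the ADP receptor of surveying microglia, had 1371, 1600 and 1658 CPM in control and 604, 1261 and 1622 CPM in treated libraries (-0.32 ± 0.21, adjusted p = 0.444). Tmem119 differed by 0.23 ± 0.23 (0.633), Cx3cr1, the fractalkine receptor, by -0.19 ± 0.14 (0.475) and Csf1r by -0.27 ± 0.12 (0.197). Nearest to the threshold were the fructose transporter Slc2a5 (-0.45 ± 0.10, 0.056) and the crystallin gene Crybb1 (-1.09 ± 0.27, 0.0707). Crybb1 had 12.0, 14.7 and 10.5 CPM in control and 3.00, 5.46 and 10.3 CPM in treated libraries, with no overlap. Without the neuron-rich libraries and HuMSC50 replicate 3, Crybb1 (-1.27, adjusted p = 0.00342) and Slc2a5 (-0.40, 0.0289) were among 5 homeostatic genes that fell, and 1 rose. The macrophage receptor Mrc1 (0.091 ± 0.14, adjusted p = 0.786) and the galectin gene Lgals3 (0.13 ± 0.20, 0.774) did not pass either. Of 25 cholesterol synthesis and 29 oxidative phosphorylation genes 0 were called, with medians of -0.020 and -0.074.

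The neuron markers themselves were not called: 0 of 28 passed with all 9 treated libraries, where the median was 2.49, and all 28 were above 0. The microtubule protein gene Map2 had 22, 25.3 and 41.2 CPM in control and 52.4, 103 and 569 CPM in treated libraries (2.64 ± 0.62, adjusted p = 0.0657), with no overlap. Without the neuron-rich libraries the median was 1.36 and 0 were called, and without HuMSC50 replicate 3 as well it was 1.34 with 13 called. Precursor and mature oligodendrocyte markers had medians of 1.85 and 1.56, and 0.81 and 0.73 without the neuron-rich libraries. In injured libraries the neuron median was -0.028. The mean level of the neuron list was 1.94 or more in each treated library and 1.89 or less in each control.

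Each dose was then compared with the same 3 controls, which the 3 comparisons share. At 20 M cells per kg 10 genes were called (0.068%), 7 lower (0.0476%) and 3 higher (0.0204%). Besides the 4 genes called at each dose these were P2rx1, Atp2a3, Kif2c and Cytip, which fell, and Spsb1 and Nr4a2, which rose. At 50 M, 6 were called (0.0408%), among them Skp2 (fell by 0.91 ± 0.13) and Smpd3 (fell by 0.83 ± 0.13). At 125 M, 1102 were called (7.5%), 884 higher (6.01%) and 218 lower (1.48%), and the higher ones included 27 of 28 neuron, 8 of 16 oligodendrocyte and 8 of 12 oligodendrocyte precursor markers. Of its 3 libraries 2 were neuron-rich. The count was 9 without HuMSC125 replicate 1, 7 without replicate 2, 2167 without replicate 3, and 11 to 13 without 1 control. At 20 M it was 2 without 1 control, and leaving out replicate 1, 2 or 3 of that dose gave 2, 620 and 4. At 50 M it was 2 without 1 control, and leaving out replicate 2 or 3 of that dose gave 3 and 24. With such shifts the counts do not rank the doses.

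Named genes show the doses side by side. At 20, 50 and 125 M cells per kg Ankrd55 changed by -2.42 ± 0.21, -2.16 ± 0.21 and -2.30 ± 0.21 against control, and Myc by -1.06 ± 0.15, -1.10 ± 0.15 and -1.29 ± 0.15. Both were called at each dose. Klf4 changed by -0.20 ± 0.19, -0.86 ± 0.19 and -1.31 ± 0.20, Pdk4 by -0.93 ± 0.20, -1.05 ± 0.20 and -1.63 ± 0.20, and Nr4a2 by 1.41 ± 0.23, 1.15 ± 0.23 and 0.50 ± 0.23. These 3 were picked for their spread between doses. The joint test among doses called 0 genes in edgeR (1875 at an unadjusted p under 0.05, 22 in DESeq2), with adjusted p = 0.384 for Klf4, 0.384 for Pdk4 and 0.384 for Nr4a2.

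**Figure D4:**
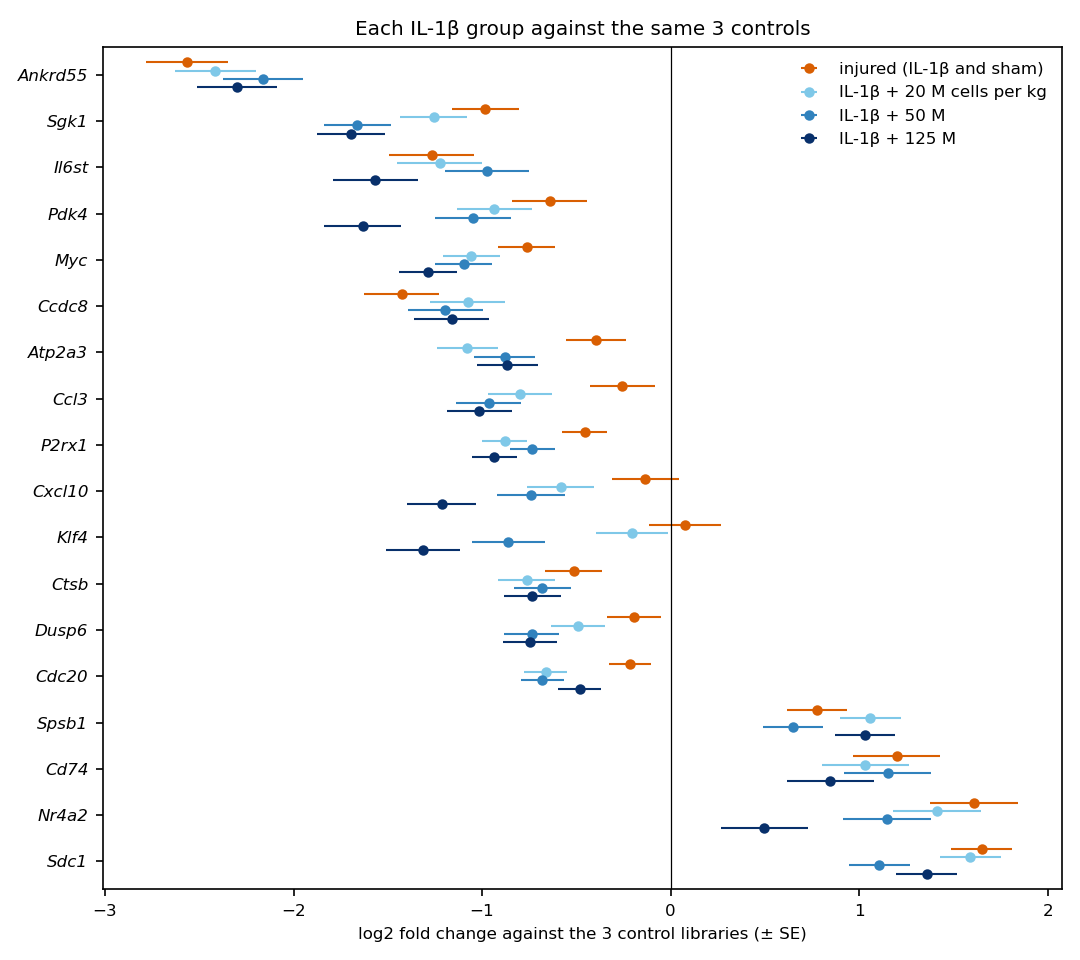
Log2 fold change (± SE) of 18 genes in the injured group and at each dose, all against the same 3 control libraries, which the 4 comparisons share. Ankrd55 lies between -2.56 and -2.16 in all 4 groups, while Ccl3, Cxcl10 and Klf4 lie nearer to 0 in the injured group than at 50 and 125 M cells per kg.

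The injured libraries show what IL-1β without cells gave against the same controls, where 5 genes were called (0.034%): Ankrd55, Sdc1, Ccdc8, Nr4a2 and Gpd1. The count was 2 without any 1 control, without injured replicate 1 and without injured replicate 2. They share their controls with the treated comparison, so values are set side by side. Some genes had like values in both. Ankrd55 was -2.56 ± 0.21 in injured and -2.29 ± 0.15 in treated libraries, Sdc1 1.65 ± 0.16 and 1.35 ± 0.14, Il6st -1.27 ± 0.22 and -1.25 ± 0.17, Cd74 1.20 ± 0.23 and 1.01 ± 0.20. Gpd1, the glycerol phosphate dehydrogenase, was nearer to control in treated libraries, at -1.22 ± 0.19 and -0.77 ± 0.15. The treated median CPM of Nr4a2 also lay nearer to control than each injured library. Every gene set side by side here passed in the treated comparison, a choice that favours larger values there. Gpd1 and Nr4a2 were also called in the injured comparison, which favours larger injured values and so a treated value nearer to control. Some genes were further from control in treated libraries. Ccl3 was -0.26 ± 0.17 in injured and -0.93 ± 0.13 in treated libraries, Atp2a3 -0.40 ± 0.16 and -0.94 ± 0.13, P2rx1 -0.46 ± 0.12 and -0.85 ± 0.093, Cxcl10 -0.13 ± 0.18 and -0.85 ± 0.14, and Klf4 0.078 ± 0.19 and -0.79 ± 0.15. Ccl3 had 892, 949 and 856 CPM in injured libraries, above every treated library. Cell cycle genes had a median of -0.085 in injured and -0.37 in treated libraries, and lysosomal genes -0.083 and -0.29.

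Treated libraries were tested against injured ones directly, and 0 genes were called in edgeR (2356 at an unadjusted p under 0.05, 1016 in DESeq2). Ccl3 differed by -0.67 ± 0.13, Atp2a3 by -0.54 ± 0.13, P2rx1 by -0.39 ± 0.095 and Sgk1 by -0.56 ± 0.14, each with adjusted p = 0.0988. Ankrd55 differed by 0.27 ± 0.17 (0.508) and Il6st by 0.013 ± 0.18 (0.988). The count was 1040 without HuMSC125 replicate 3, 477 without HuMSC20 replicate 2 and 2 without HuMSC50 replicate 2, and 0 on leaving out any other 1 of these 12 libraries. Without the neuron-rich libraries and HuMSC50 replicate 3 it was 199.

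The P7 intranasal run, with controls of its own, gave the like comparison: 9 libraries with IL-1β and intranasal cells against 3 uninjured ones. There 416 of 13872 genes were called (3%), 1.4% higher and 1.6% lower. All 97 genes were tested in both runs, and 95 of them (97.9%) had the same sign, against 66.7% of 13756 genes tested in both. The 97 were chosen for small p in the intravenous run and the 13756 were not, so these shares are not like for like. Of the 97, 49 were called there too with the same sign, which is 50.5% of the intravenous calls and 11.8% of the 414 intranasal calls tested in both runs. Ankrd55 changed by -2.27 ± 0.23 there and -2.29 ± 0.15 in the intravenous run, and Sdc1 by 1.58 ± 0.17 and 1.35 ± 0.14. Sgk1 changed by -0.69 ± 0.085 and -1.54 ± 0.13, Pdk4 by -0.31 ± 0.10 and -1.21 ± 0.15, P2rx1 by -0.22 ± 0.10 and -0.85 ± 0.093, and Ccl3 by -0.20 ± 0.14 and -0.93 ± 0.13. The test of the difference between runs called 0 of 14851 genes in edgeR (1460 at an unadjusted p under 0.05, 41 in DESeq2), with -0.83 ± 0.17 for Sgk1 (adjusted p = 0.0913), -0.87 ± 0.20 for Pdk4 (0.175) and 0.00051 for Ankrd55 (1). No SE is given for Ankrd55, as the change and the F from which it is taken were both near 0. The test called 42 genes without intravenous HuMSC125 replicate 3 and 3 without intranasal control replicate 3. Route and run cannot be told apart. Cell cycle genes had a median of -0.43 there with 12 of 40 falling, and the 23 neuron markers tested there one of 0.49. Some lists lay further from 0 there with the same sign. Among them, cholesterol synthesis genes had a median of -0.28 with 6 of 25 falling, against -0.020 with 0 called. Oxidative phosphorylation genes had -0.18 against -0.074. Several others lay nearer to 0 there or changed sign. The lysosomal median was -0.067 against -0.29 in the intravenous run, that of early or proliferative-region microglia 0.11 against -0.19, that of cytokines, chemokines and NF-kB targets 0.082 against -0.17, and that of complement and phagocytosis 0.068 against -0.26. Antigen presentation genes had 0.22 against -0.13, IL-1 and IL-6 signalling genes 0.071 against -0.067, and immediate early genes 0.26 against -0.039. Mast cell markers had a median of 1.89 with 8 of 14 rising, against -0.53 with 0 of 14 called. These differences between lists were not tested.

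**Figure D5:**
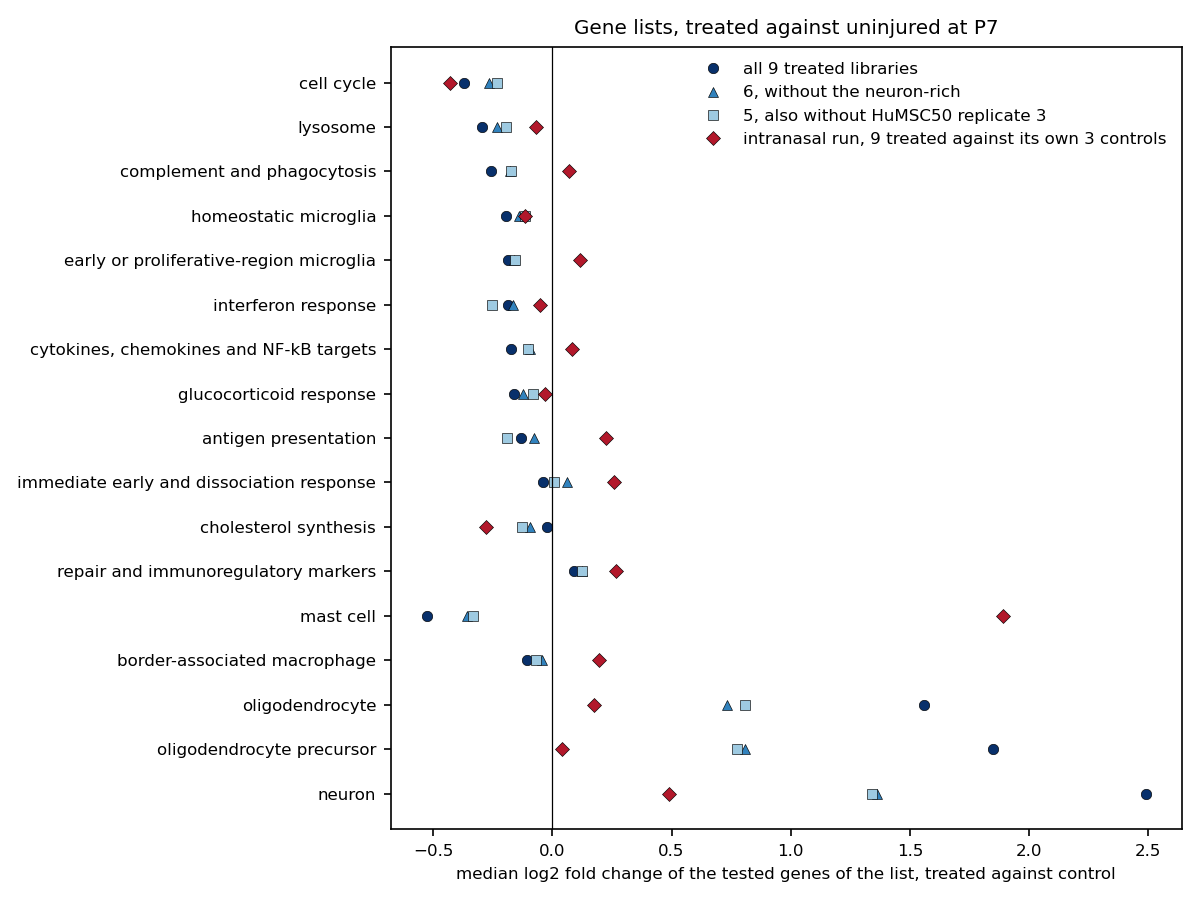
Median log2 fold change of treated against control libraries for 17 gene lists, in the intravenous run with all 9 treated libraries, with the 6 that are not neuron-rich and with 5, and in the intranasal run. Cell cycle genes lie at -0.37 and -0.43 in the 2 runs, 7 of the lists drawn lie below 0 in the intravenous and above 0 in the intranasal run, and neuron markers fall from 2.49 to 1.36 when the neuron-rich libraries are left out.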

How the data were processed

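Whole-number read counts per gene were deposited by the authors for each library. Per the submitters' processing notes the tools were HTSeq 0.5.3, STAR 2.7.2d, DESeq2 1.8.1 and SAMtools. The genome build, the annotation, and the treatment of strand and of reads that map to several places are not given in the sources used here. Near-identical genes (class II genes, Fcgr genes, immunoglobulin chains) are therefore uncertain.

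The counts of the 15 libraries of the run were filtered with filterByExpr (minimum count 10, minimum total 15), scaled by TMM and fitted with edgeR 4.0.16 (quasi-likelihood, R 4.3.3). Each of the 5 groups had its own mean, and the treated value was the mean of the 3 dose groups. P-values were adjusted by Benjamini-Hochberg over all genes tested, and a gene was called at an adjusted p under 0.05. The SE is the absolute log2 fold change divided by the square root of F. CPM use TMM library sizes, and log2 CPM a prior count of 2. A library was called neuron-rich where its neuron marker level exceeded the median of the run by more than 1.5 on the log2 scale. Alternatives used DESeq2 1.42.0, limma 3.58.1 (voom with quality weights), RLE scaling, other filters, a replicate block, fewer groups in the fit, and each library left out. The fit without the neuron-rich libraries and HuMSC50 replicate 3 together was chosen after seeing the data. The code was tested on simulated data.

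Named genes were up to 10 rises and 10 falls without overlap and a log2 CPM averaging 1 or more, with and without the neuron-rich libraries, 5 each per dose, 4 per list by p, and a set list. The text prints a part of these. Members of a list that fall outside the rule (C1qa, C1qb, C1qc, Gpx3, Grn, Mcm2, Pcna, RT1-Ba, RT1-Db1 and RT1-N3) were picked with their values in view. The members and lists were chosen with earlier results of these data known. Of 770 list genes 741 were matched, 8 of them by synonym, and 57 were in more than 1 list. The 6 promoter motifs, and the genes whose promoters were searched, were chosen with the results known.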

Additional observations from a re-analysis of the deposited data

How the results depend on the processing

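Of the 97 genes called in treated against control libraries, 7 kept their call in all 22 alternatives and 90 lost it in at least 1. None changed sign in any, though the alternatives reuse libraries in which the 97 were chosen. The count was 367 with no filter on low counts, 48 with a replicate block, 31 with only the 4 groups of the contrast in the fit, 15 without the neuron-rich libraries, 2986 with limma voom and quality weights, 1381 with DESeq2, 476 without the neuron-rich libraries and HuMSC50 replicate 3, and 14 to 1242 on leaving out 1 library. Whether libraries of the same replicate number were paired is not known. Over 30 same-numbered pairs the correlation of deviations from group means was -0.591 to 0.503, and 11 exceeded 0.1. Of 15 libraries, 5 correlated best with their own number. With 3 libraries a group, some of them outlying, this check cannot exclude pairing. With the replicate block the counts were 5 at 20 M, 3 at 50 M, 2 in injured libraries and 48 without the neuron-rich libraries.

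At 20 M the count was 2 without the neuron-rich libraries, 95 without these and HuMSC50 replicate 3, 3 with only the groups of the contrast and 1049 with DESeq2, and 2 to 620 on leaving out 1 library. At 50 M it was 114 without those 4 libraries, 3 with only the groups of the contrast, 166 with DESeq2 and 2 to 24 on leaving out 1. At 125 M it was 724 with a stricter filter, 0 without the neuron-rich libraries (1 library left at that dose), 4 without those 4, 1821 with DESeq2 and 7 to 2167 on leaving out 1. In injured libraries it was 65 without those 4, 58 with only the groups of the contrast, 62 with DESeq2 and 2 to 5 on leaving out 1. Treated against injured gave 199 without those 4, 1016 with DESeq2 and 0 to 1040 on leaving out 1. Among doses DESeq2 called 22, and leaving out 1 library gave 0 to 1. Without the neuron-rich libraries the 15 calls became 145 with no filter, 6 with only the groups of the contrast, 468 with DESeq2 and 4 to 476 on leaving out 1. The difference between runs gave 9 with no filter, 1 without those 4, 41 with DESeq2 and 0 to 42 on leaving out 1. Of single genes, 5 that were never called changed sign. With libraries left out, the log2 change ranged from -1.02 to 0.21 for Enpp6, from -0.046 to 0.24 for Mrc1, from -0.17 to 0.028 for C1qa and from -0.049 to 0.11 for C1qc, and for Mcm2 it was 0.018 without the neuron-rich libraries. The cause of these shifts was not tested.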
